A study of Homo sapiens with 16 samples.

Results

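The m6A reader genes described here are 10 genes whose proteins are counted as readers of N6-methyladenosine (m6A), a methyl mark on adenosines within messenger RNA. They were taken by name from the deposited expression table: YTHDF1, YTHDF2, YTHDF3, YTHDC1, YTHDC2, IGF2BP1, IGF2BP2, IGF2BP3, HNRNPA2B1 and HNRNPC. All 10 were among its 26830 entries, and 9 of them were among the 14951 entries that reached 1 TPM in 3 or more libraries and were tested. TPM is a share of all transcripts in a library, scaled for their length. The study sequenced poly(A) RNA of NOMO-1, a human acute myeloid leukaemia cell line of monocytic type, to compare 2 compounds presented as inhibitors of the m6A eraser FTO with a hairpin against FTO itself. The CS1 group (3 libraries) was NOMO-1 cells given 100 nM CS1 for 72 h. The CS2 group (3 libraries) was given 500 nM CS2 for 72 h, and the DMSO group (4 libraries) was given the solvent for the same time. The shFTO group (3 libraries) was NOMO-1 cells infected with a lentivirus that carries a hairpin against FTO and then selected with puromycin at 1 µg/ml for 1 week. The shNS group (3 libraries) carried the control hairpin and was likewise selected with puromycin at 1 µg/ml for 1 week. The labels name the compounds only by code. From general knowledge of the publication CS1 is bisantrene and CS2 is brequinar, which was not checked here. All libraries came from 1 cell line, and the submitters describe them as biological replicates without saying how the cultures were separated.

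Writers place m6A on RNA, and erasers such as FTO and ALKBH5 remove it. Readers bind it, or RNA that it makes accessible, and set what becomes of the transcript. YTHDF proteins are cytoplasmic and act on the stability and translation of marked messages, YTHDC1 works in the nucleus on splicing and export, and YTHDC2 is an RNA helicase known from meiosis. IGF2BP proteins stabilise their targets and are best known from embryonic tissue and tumours, and IGF2BP3 is expressed in some acute leukaemias. HNRNPA2B1 and HNRNPC are abundant nuclear RNA-binding proteins, of which HNRNPC binds stretches of U that m6A makes accessible.

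The promoters of 4 readers are shown because IGF2BP3, which rose in shFTO cells, and YTHDF1, which fell in them, both hold the E-box CACGTG, while HNRNPC and HNRNPA2B1, which fell together in shFTO and CS1 cells, do not. Each line gives the 250 bases before the transcription start, 5′ to 3′ on the strand of the gene, from RefSeq on GRCh38.p14, and capitals mark CACGTG. All 4 genes lie on the minus strand, with windows at chr7:23470492-23470741 (IGF2BP3), chr20:63216132-63216381 (YTHDF1), chr7:26200747-26200996 (HNRNPA2B1) and chr14:21269443-21269692 (HNRNPC).
IGF2BP3: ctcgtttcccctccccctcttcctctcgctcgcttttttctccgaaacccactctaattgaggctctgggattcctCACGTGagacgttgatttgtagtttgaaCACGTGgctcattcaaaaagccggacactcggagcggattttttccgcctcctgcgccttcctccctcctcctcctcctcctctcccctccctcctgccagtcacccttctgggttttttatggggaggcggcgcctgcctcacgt
YTHDF1: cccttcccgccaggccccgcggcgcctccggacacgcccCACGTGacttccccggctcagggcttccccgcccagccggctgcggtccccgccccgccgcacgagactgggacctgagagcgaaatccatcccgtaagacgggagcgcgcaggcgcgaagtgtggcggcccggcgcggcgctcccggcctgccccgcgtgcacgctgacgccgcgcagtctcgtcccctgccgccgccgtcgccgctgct
HNRNPA2B1: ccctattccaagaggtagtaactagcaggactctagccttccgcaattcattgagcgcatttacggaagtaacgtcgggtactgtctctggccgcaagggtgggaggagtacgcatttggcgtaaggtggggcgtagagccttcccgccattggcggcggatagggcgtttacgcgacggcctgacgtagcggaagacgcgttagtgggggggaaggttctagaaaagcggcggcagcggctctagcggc
HNRNPC: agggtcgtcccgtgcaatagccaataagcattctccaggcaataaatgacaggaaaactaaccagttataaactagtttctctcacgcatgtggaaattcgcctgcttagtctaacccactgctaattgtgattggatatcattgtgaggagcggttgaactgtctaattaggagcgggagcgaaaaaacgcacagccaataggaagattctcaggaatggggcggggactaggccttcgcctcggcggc
The IGF2BP3 window held CACGTG at 174 and at 146 bases before the start, and the YTHDF1 window held it at 211 bases. No window of YTHDF2, YTHDC1, YTHDC2 or IGF2BP2 held it either, and IGF2BP2 rose in shFTO cells, so its absence is not particular to the HNRNP readers. Of all 35116 windows of this kind, searched over 250 bases before to 50 after the start, 2548 (7.26%) held CACGTG, which reads the same on both strands, and 233 (0.664%) held it more than once. The ETS-type motif CCGGAAGT, searched on both strands, was in none of the 10 windows of the 8 members looked at and in 4.14% of all windows. These matches describe letters only, and no binding was measured.

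The readers differed widely in level, and the order was led by the same 4 genes in every group. Since TPM is per length, levels of different genes can be set side by side. In DMSO cells HNRNPA2B1 averaged 1222 ± 20.7 TPM (SD, n = 4), above 99.3% of the genes tested, and HNRNPC averaged 526 ± 8.95 TPM, above 98.5%. YTHDF2 (120 ± 3.39 TPM) and YTHDF1 (81.7 ± 1.45 TPM) came next in DMSO cells, followed by YTHDF3 at 50.2 ± 3.72 TPM. Below them IGF2BP3 (37.0 ± 2.81 TPM) and YTHDC1 (33.4 ± 0.817 TPM) had overlapping ranges over the DMSO libraries, but IGF2BP3 was above YTHDC1 within each library. IGF2BP2 (26.4 ± 1.69 TPM) and YTHDC2 (25.6 ± 2.80 TPM) overlapped as well, and which of them was higher changed between libraries. In shFTO cells the lower part of this order was another one: YTHDF3 (44.8 ± 3.04 TPM) and IGF2BP3 (43.7 ± 2.95 TPM) overlapped, IGF2BP2 (38.6 ± 0.575 TPM) came next, and YTHDC1 (26.0 ± 1.09 TPM) and YTHDC2 (20.3 ± 1.11 TPM) were lowest (n = 3 each). In shNS cells YTHDF3 (32.7 ± 1.26 TPM) overlapped IGF2BP2 (32.6 ± 0.711 TPM), YTHDC1 (26.0 ± 0.913 TPM) followed, and IGF2BP3 (21.4 ± 0.929 TPM) overlapped YTHDC2 (20.6 ± 0.751 TPM). Within each shNS library IGF2BP3 was nevertheless above YTHDC2. IGF2BP1 was at 0.02 TPM in shFTO replicate 2 and 0.01 TPM in shNS replicate 3, was listed at 0 in every other library, and was not tested.

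**Figure D1:**
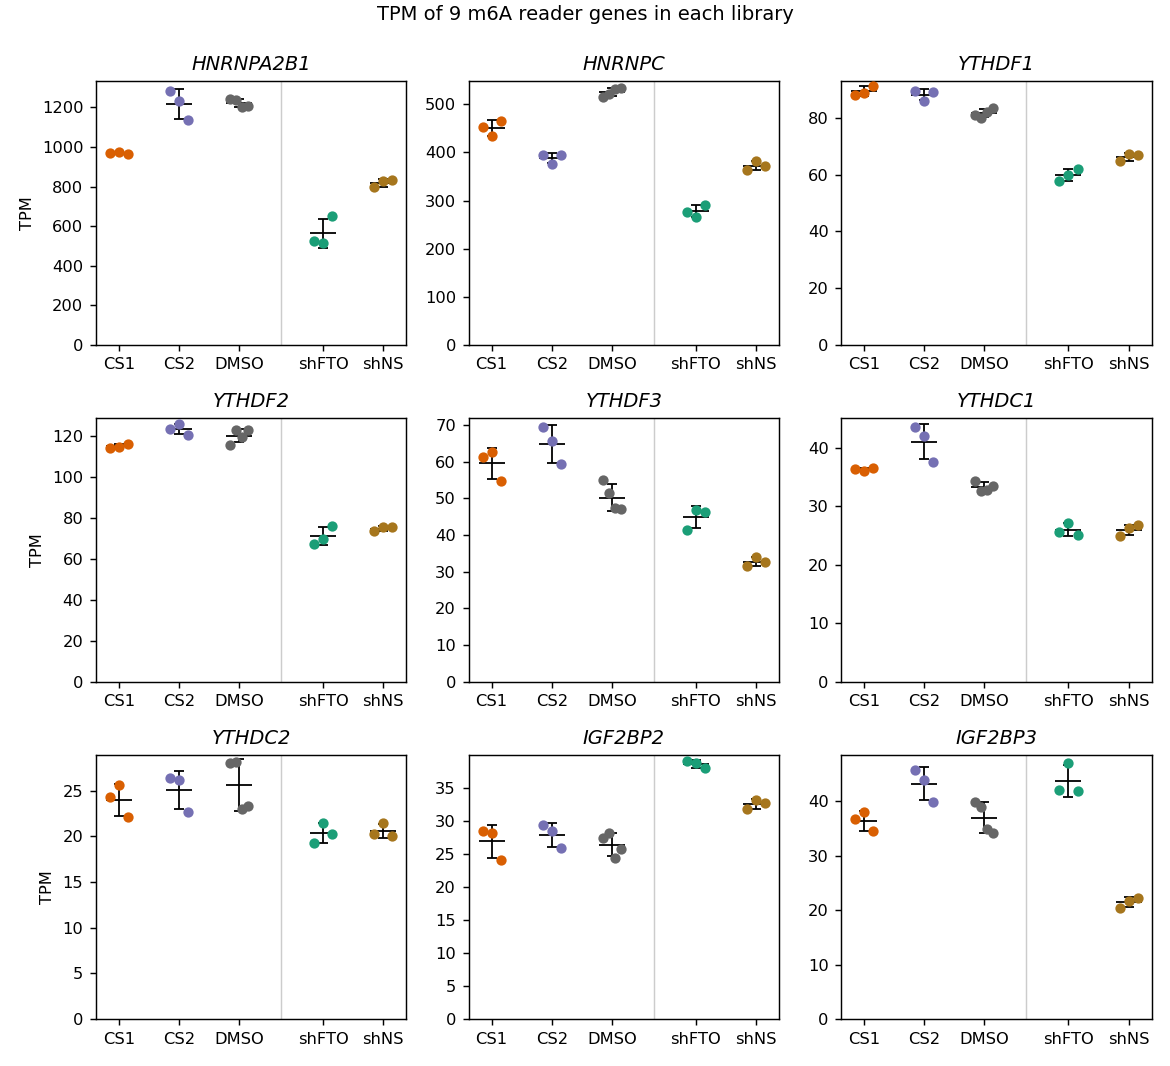
TPM of the 9 tested reader genes, 1 panel a gene, with 1 point a library, the group mean as a horizontal line and the SD as a bar. The groups run CS1, CS2 and DMSO, then shFTO and shNS; IGF2BP3 sits at 42.0 to 47.1 TPM in shFTO libraries and at 20.4 to 22.2 TPM in shNS libraries, and HNRNPC is lower in each of the CS1, CS2 and shFTO groups than in its control.

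Libraries of a group were close to each other (Pearson r over genes 0.988 to 0.993), and none were identical. The TPM of most genes moved a little upward together: the median log2 change over all genes tested was 0.09 for CS1 against DMSO, 0.20 for CS2 against DMSO and 0.07 for shFTO against shNS. Ribosomal protein genes held 8.23% to 8.45% of TPM in CS2 libraries and 14.5% to 16.1% in DMSO libraries. With ribosomal and mitochondrial-like entries removed, the medians were 0.04, 0.07 and 0.09 in the same order. The part of these entries in the shift was not tested further. Because of the shift, changes are also given after median-of-ratios scaling, which brings the medians as deposited to -0.02, 0.00 and -0.01 (0.000387 for CS2 before rounding). Of the 8 markers named for a monocytic line, 7 reached 1 TPM in at least 1 library, all but MPO. CSF1R, among the 7, was at only 0.55 to 0.71 TPM in DMSO libraries. The 8 markers had summed TPM of 867 to 938 in CS1, 1055 to 1105 in CS2, 434 to 444 in DMSO, 2924 to 3497 in shFTO and 661 to 680 in shNS libraries. The T cell marker CD3E was at 0 throughout, the 4 erythroid and megakaryocyte markers summed to at most 0.58 TPM and the 5 epithelial and fibroblast markers to at most 1.66 TPM. The summed monocytic markers are higher in CS1, CS2 and shFTO libraries than in their controls, and their part in the reader changes was not tested. LYZ, which encodes lysozyme, makes up most of the sum in shFTO libraries, at 2049.7, 2048 and 2579 TPM, against 166, 163 and 159 TPM in shNS libraries. SPI1, a myeloid transcription factor, was at 114, 115 and 125 TPM in shFTO libraries, against 125, 134 and 129.7 TPM in shNS libraries, so the markers did not all move one way. In bulk RNA, fewer cells of a type and less RNA per cell cannot be told apart.

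FTO, the gene that the hairpin targets, checked the labels. It was at 8.12, 7.49 and 8.35 TPM in shFTO libraries, against 31.3, 30.8 and 32.8 TPM in shNS libraries, a log2 change of -1.86 ± 0.06 (SE, limma adjusted p = 7.38e-12). In CS1 and CS2 cells it averaged 34.1 ± 2.43 and 34.2 ± 1.02 TPM (SD, n = 3 each), against 31.6 ± 1.82 TPM in DMSO cells (n = 4), and neither difference passed as deposited (log2 changes 0.10 and 0.11, adjusted p = 0.141 and 0.0936). After median-of-ratios scaling FTO stood at -0.03 in CS1 cells (adjusted p = 0.656) and passed as lower in CS2 cells, at -0.12 (adjusted p = 0.0334), so both values changed sign.

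In shFTO cells IGF2BP3 had the largest change of any reader in the 3 comparisons with a control. Of the 9 readers tested, 3 rose in shFTO cells (IGF2BP3, YTHDF3 and IGF2BP2), 3 fell (HNRNPA2B1, HNRNPC and YTHDF1) and 3 did not pass, at an adjusted p under 0.05. Of all genes tested 56.4% passed in this comparison, 31.9% as higher and 24.5% as lower, so the count of 6 among 9 is near the background. The libraries did not overlap for 6 of the 9 readers, against 64.7% of all genes. After median-of-ratios scaling 3 rose and 4 fell, the addition being YTHDF2, and 56.4% of all genes passed again. The split of all calls moved with the scaling too: 56.6% of them were higher in shFTO cells as deposited and 44.4% after scaling.

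IGF2BP3, an RNA stabiliser of fetal and tumour cells (chr7:23310209-23470467, minus strand), was at 42.0, 47.1 and 42.0 TPM in shFTO libraries, against 20.4, 21.6 and 22.2 TPM in shNS libraries. Every shFTO library was well above every shNS library. The log2 change was 0.99 ± 0.07 (SE), a 1.99-fold rise (adjusted p = 2.43e-08), and it was 0.90 after median-of-ratios scaling (adjusted p = 2.94e-09). By level, the shNS mean of 21.4 ± 0.929 TPM was the lowest of all groups. The shFTO mean of 43.7 ± 2.95 TPM was nearer to those of CS2 cells (43.2 ± 3.02 TPM, SD, n = 3 each) and DMSO cells (37.0 ± 2.81 TPM, n = 4). DMSO cells were not infected or selected, and no test set them against hairpin cells. The gene overlaps MALSU1 by 1521 bases on the other strand, and the sources used here do not say whether counting used strand. MALSU1 went the other way, at 48.1, 44.2 and 50.6 TPM in shFTO libraries against 77.6, 77.96 and 75.9 TPM in shNS libraries (log2 change -0.69, adjusted p = 3.46e-08).

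Its paralogue IGF2BP2 (chr3:185643739-185825056, minus strand) was at 39.1, 38.7 and 38.0 TPM in shFTO libraries, against 31.8, 33.2 and 32.7 TPM in shNS libraries. The groups did not overlap, and the rise was 0.24 ± 0.07 on the log2 scale (SE, adjusted p = 0.00668). After scaling it was 0.14 (adjusted p = 0.0273). IGF2BP2-AS1, an antisense RNA that shares 17260 bases with it, had a log2 change of 0.19 that did not pass (adjusted p = 0.171).

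The 3 YTHDF genes went different ways in shFTO cells. YTHDF3, a cytoplasmic reader described as acting with the other two YTHDF proteins (chromosome 8), was at 41.4, 46.9 and 46.3 TPM in shFTO libraries, against 31.6, 34.1 and 32.6 TPM in shNS libraries. It rose by 0.44 ± 0.07 on the log2 scale (SE, adjusted p = 0.00012), and by 0.34 after scaling (adjusted p = 4.14e-05). Its shFTO mean of 44.8 ± 3.04 TPM (SD, n = 3) was below the DMSO mean of 50.2 ± 3.72 TPM (n = 4), and no test compared these groups. YTHDF1, known for promoting translation of marked messages (chr20:63195429-63216234, minus strand), was at 57.6, 59.9 and 61.9 TPM in shFTO libraries, against 64.7, 67.2 and 66.8 TPM in shNS libraries. Its groups did not overlap either, and it fell by 0.14 ± 0.03 (SE, adjusted p = 0.00192), or 0.25 after scaling (adjusted p = 0.000637).

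YTHDF2, which recruits the deadenylation machinery to marked messages (chr1:28736621-28769775, plus strand), was at 67.4, 69.9 and 76.0 TPM in shFTO libraries, against 73.6, 75.4 and 75.6 TPM in shNS libraries. One shFTO library lay above all shNS libraries and the others below, and the log2 change of -0.08 did not pass (adjusted p = 0.118; 95% interval -0.16 to 0.01). Without shFTO replicate 3 it was -0.12 (adjusted p = 0.00473), and after median-of-ratios scaling -0.18 (adjusted p = 0.0054).

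The YTHDC readers had overlapping groups in this comparison. YTHDC1 (chr4:68310387-68350089, minus strand) averaged 26.0 ± 1.09 TPM in shFTO cells and 26.0 ± 0.913 TPM in shNS cells (SD, n = 3 each), with a 95% interval for the log2 change of -0.11 to 0.11. YTHDC2 (chr5:113513683-113595285, plus strand) averaged 20.3 ± 1.11 TPM in shFTO cells and 20.6 ± 0.751 TPM in shNS cells (95% interval -0.20 to 0.16).

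The 2 HNRNP readers fell. HNRNPA2B1, which binds nuclear RNA and takes part in microRNA processing (chr7:26173057-26201529, minus strand), was at 524, 515 and 649 TPM in shFTO libraries, against 797, 828 and 832 TPM in shNS libraries. All shFTO libraries were lower, with replicate 3 nearest to the controls. The log2 change was -0.55 ± 0.07 (SE, adjusted p = 6.88e-06), and it was -0.65 after scaling (adjusted p = 1.04e-06). HNRNPC, whose protein packages nascent RNA and guides splicing (chr14:21209136-21269494, minus strand), was at 275, 266 and 291 TPM in shFTO libraries, against 364, 383 and 371 TPM in shNS libraries. It fell by 0.43 ± 0.04 on the log2 scale (SE, adjusted p = 2.52e-07), and by 0.53 after scaling (adjusted p = 3.25e-06).

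HNRNPC and HNRNPA2B1 have neighbours that counting could mix with them. HNRNPCL2, a near copy of HNRNPC, averaged 30.1 ± 0.909 TPM in shFTO cells and 38.7 ± 1.36 TPM in shNS cells (SD, n = 3 each), and it fell too (log2 change -0.35, adjusted p = 5.41e-05), so the split of reads between the pair is uncertain. NFE2L3, which overlaps HNRNPA2B1 by 14069 bases on the other strand, had a log2 change of -0.13 that did not pass in shFTO cells (adjusted p = 0.198). It did fall by 0.47 in CS1 cells and by 0.49 in CS2 cells (adjusted p = 0.000191 and 5.44e-05). CBX3, which shares 368 bases with HNRNPA2B1, fell by 0.24 in shFTO cells (adjusted p = 0.000161). In CS1 and CS2 cells CBX3 did not pass (adjusted p = 0.581 and 0.0784).

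**Figure D2:**
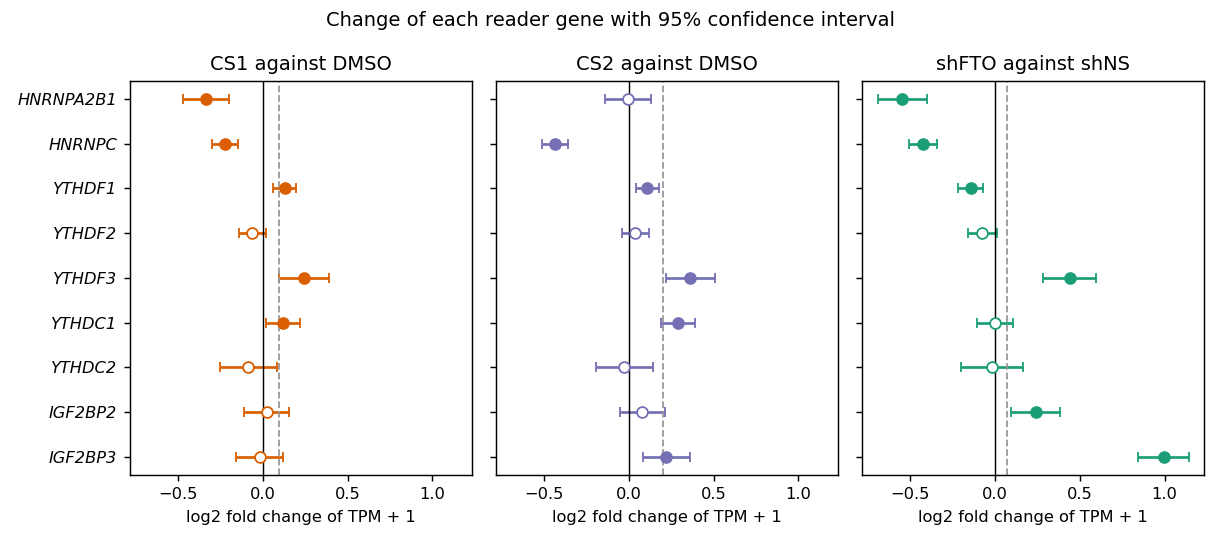
Log2 fold change of TPM + 1 for the 9 tested readers in CS1 against DMSO, CS2 against DMSO and shFTO against shNS, with 95% confidence intervals; filled points passed at an adjusted p under 0.05 and the dashed line is the median over all genes tested. HNRNPC lies at -0.22, -0.44 and -0.43 in the 3 panels, while IGF2BP3 lies at -0.02, 0.22 and 0.99.

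Both HNRNP readers were lower in cells given CS1 at 100 nM. Of the 9 readers tested, 3 passed as higher than in DMSO cells (YTHDF1, YTHDF3 and YTHDC1) and 2 as lower (HNRNPA2B1 and HNRNPC), with 4 that did not pass. Of all genes 51.8% passed, 37.5% as higher and 14.3% as lower. The libraries did not overlap for 4 of the 9 readers, against 53.9% of all genes. Measured from the common shift of 0.09, YTHDF1 stood at 0.04, YTHDC1 at 0.03 and YTHDF3 at 0.15. After median-of-ratios scaling limma called 0 readers higher (1, YTHDF3, at an unadjusted p under 0.05) and 5 lower, against 52.2% of all genes in either direction. The share of all calls that were higher was 72.4% as deposited and 49.1% after that scaling, so the count of readers in each direction depends on the scaling.

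HNRNPA2B1 was at 971, 973 and 964 TPM in CS1 libraries, against 1243, 1237, 1202 and 1207 TPM in DMSO libraries. The CS1 libraries lay close to each other and below every DMSO library. The log2 change was -0.33 ± 0.06 (SE, adjusted p = 0.000422), and -0.47 after scaling (adjusted p = 1.9e-05). HNRNPC was at 452, 434 and 466 TPM in CS1 libraries, against 516, 522, 533 and 534 TPM in DMSO libraries, again with no overlap. It fell by 0.22 ± 0.04 (SE, adjusted p = 7.98e-05), and by 0.36 after scaling (adjusted p = 9.91e-05).

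YTHDF3 was at 61.3, 62.6 and 54.8 TPM in CS1 libraries, against 54.9, 51.6, 47.3 and 47.1 TPM in DMSO libraries. The lowest CS1 library, replicate 3, was just below the highest DMSO library, so the groups overlapped. The log2 change of 0.24 ± 0.07 passed as deposited (SE, adjusted p = 0.00821) and was 0.11 after scaling (adjusted p = 0.0629). YTHDF1 was at 87.9, 88.9 and 91.3 TPM in CS1 libraries, against 81.2, 80.1, 82.1 and 83.5 TPM in DMSO libraries, without overlap. Its log2 change was 0.13 ± 0.03 (SE, adjusted p = 0.00327) and 0.00 after scaling (-0.00443, adjusted p = 0.945).

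YTHDC1 was at 36.4, 36.0 and 36.6 TPM in CS1 libraries, against 34.4, 32.6, 32.8 and 33.5 TPM in DMSO libraries. These did not overlap, and the log2 change of 0.12 ± 0.05 was just past the threshold (SE, adjusted p = 0.0435). It no longer passed when any 1 of DMSO replicates 2, 3 and 4 or of the CS1 replicates was left out (adjusted p = 0.0672 to 0.101), and after scaling it was -0.01 (adjusted p = 0.862). YTHDF2 averaged 115 ± 1.07 TPM in CS1 cells (SD, n = 3) and 120 ± 3.39 TPM in DMSO cells (n = 4), a change of -0.06 that did not pass as deposited (adjusted p = 0.167) and of -0.20 that did after scaling (adjusted p = 0.00204). YTHDC2, IGF2BP2 and IGF2BP3 overlapped between CS1 and DMSO libraries, with log2 changes of -0.09, 0.02 and -0.02 (adjusted p = 0.386, 0.774 and 0.821). For IGF2BP3 the 95% interval, -0.16 to 0.12, leaves out a change of the size seen in shFTO cells. After scaling IGF2BP3 was lower in CS1 cells, by 0.15 (adjusted p = 0.0137), and YTHDC2 by 0.21 (adjusted p = 0.00672).

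In cells given CS2 at 500 nM HNRNPC was at its lowest level of the compound arm. As deposited, 4 readers passed as higher in CS2 cells than in DMSO cells (YTHDC1, YTHDF3, YTHDF1 and IGF2BP3), 1 as lower (HNRNPC) and 4 did not pass. Over all genes tested 74.1% passed, 49.5% as higher and 24.6% as lower. The libraries did not overlap for 5 of the 9 readers, against 72.2% of all genes. After median-of-ratios scaling 1 was higher (YTHDF3) and 6 were lower, against 71.7% of all genes in either direction. Over all genes the share of calls that were higher was 66.8% as deposited and 49.8% after scaling.

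HNRNPC was at 394, 377 and 394 TPM in CS2 libraries, against 516, 522, 533 and 534 TPM in DMSO libraries. Its groups were far apart, with a log2 change of -0.44 ± 0.04 (SE, adjusted p = 2.07e-08), or -0.67 after scaling (adjusted p = 4.24e-08). The near copy HNRNPCL2 was at 21.1, 17.7 and 18.5 TPM in CS2 libraries, against 47.5, 44.4, 46.8 and 45.6 TPM in DMSO libraries (log2 change -1.23, adjusted p = 9.67e-12). The sum of HNRNPC with its copies gave the same count of called readers in each comparison.

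HNRNPA2B1 was at 1284, 1234 and 1136 TPM in CS2 libraries, against 1243, 1237, 1202 and 1207 TPM in DMSO libraries. The CS2 libraries spread to both sides of the DMSO libraries. The log2 change was -0.01 (-0.00708, adjusted p = 0.926, 95% interval -0.14 to 0.13). Its direction depended on the scaling: it was -0.24 after median-of-ratios scaling (adjusted p = 0.00246) and 0.47 after quantile normalization (adjusted p = 2.06e-05), so no direction is given for it in CS2 cells.

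YTHDF3 was at 69.5, 65.7 and 59.4 TPM in CS2 libraries, against 54.9, 51.6, 47.3 and 47.1 TPM in DMSO libraries. Every CS2 library was higher, with a log2 change of 0.36 ± 0.07 (SE, adjusted p = 0.00021), and of 0.13 after median-of-ratios scaling (adjusted p = 0.0226). Quantile normalization gave 0.12, which did not pass (adjusted p = 0.0722). YTHDC1 was at 43.5, 42.1 and 37.7 TPM in CS2 libraries, against 34.4, 32.6, 32.8 and 33.5 TPM in DMSO libraries. It was higher in every CS2 library, with a log2 change of 0.29 ± 0.05 (SE, adjusted p = 4.4e-05), which is 0.09 above the median of all genes and 0.06 after scaling (adjusted p = 0.186).

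IGF2BP3 was at 45.8, 43.9 and 39.9 TPM in CS2 libraries, against 39.8, 38.9, 34.9 and 34.2 TPM in DMSO libraries. The lowest CS2 library was only just above the highest DMSO library. Its change of 0.22 ± 0.07 (SE, adjusted p = 0.00679) was 0.02 above the median of all genes, and -0.01 after scaling (adjusted p = 0.85). YTHDF1 averaged 88.2 ± 1.98 TPM in CS2 cells (SD, n = 3) and 81.7 ± 1.45 TPM in DMSO cells (n = 4), a change of 0.11 as deposited (adjusted p = 0.00598) and of -0.12 after scaling (adjusted p = 0.0264), so its direction turned. YTHDF2, IGF2BP2 and YTHDC2 had overlapping groups and changes of 0.04, 0.08 and -0.03 that did not pass (adjusted p = 0.39, 0.273 and 0.762). After scaling all 3 passed as lower in CS2 cells, at -0.20, -0.15 and -0.25 (adjusted p = 0.00106, 0.00934 and 0.00118).

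**Figure D3:**
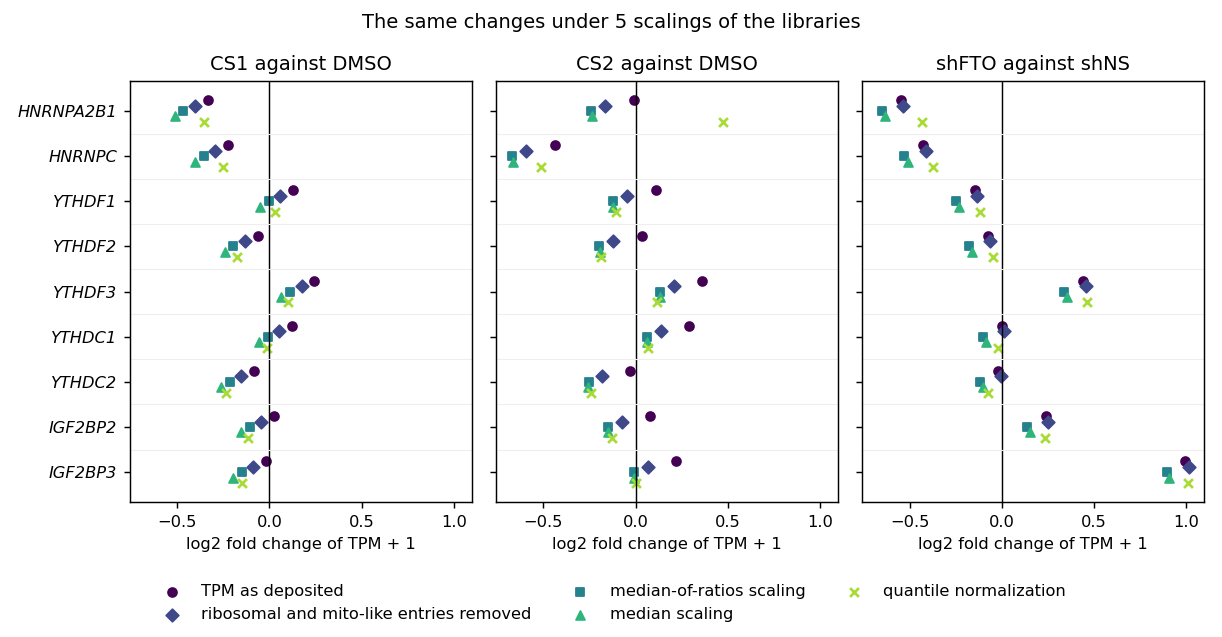
Log2 fold change of TPM + 1 for each tested reader under 5 scalings of the libraries (1 symbol each), in CS1 against DMSO, CS2 against DMSO and shFTO against shNS. HNRNPC stays left of 0 in all 3 panels and IGF2BP3, IGF2BP2 and YTHDF3 stay right of 0 in the shFTO panel, whereas HNRNPA2B1 in the CS2 panel runs to -0.24 and 0.47.

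The compounds were compared directly at their own doses, which differ (100 nM CS1 and 500 nM CS2), so compound and dose cannot be told apart. Of the 9 readers, 1 passed as higher in CS1 cells (HNRNPC) and 4 as lower (HNRNPA2B1, IGF2BP3, YTHDC1 and YTHDF2), against 66.6% of all genes (26.2% as higher and 40.4% as lower). The libraries did not overlap for 5 of the 9 readers, against 67.6% of all genes. After median-of-ratios scaling 2 were higher and 2 lower, against 64.2% of all genes in either direction. Over all genes 39.3% of the calls were higher in CS1 cells as deposited and 49.4% after scaling.

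HNRNPC and HNRNPA2B1 separated the compounds in opposite directions. HNRNPC averaged 451 ± 16.3 TPM in CS1 cells and 388 ± 9.84 TPM in CS2 cells (SD, n = 3 each), a log2 difference of 0.21 ± 0.04 (SE, adjusted p = 0.000142). HNRNPA2B1 averaged 969 ± 4.85 TPM in CS1 cells and 1218 ± 75.6 TPM in CS2 cells, a difference of -0.33 ± 0.07 (SE, adjusted p = 0.000582). Both kept their direction after median-of-ratios scaling, at 0.32 and -0.23 (adjusted p = 0.00032 and 0.00763).

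IGF2BP3 was lower in CS1 cells, at 36.4 ± 1.81 TPM, than in CS2 cells, at 43.2 ± 3.02 TPM (difference -0.24, adjusted p = 0.00716). After scaling this difference was -0.14 (adjusted p = 0.0228). YTHDC1 differed by -0.17 as deposited (adjusted p = 0.00762) and by -0.07 after scaling (adjusted p = 0.163). YTHDF2 differed by -0.10 as deposited (adjusted p = 0.0375) and by 0.00 after scaling (0.00107, adjusted p = 0.988), and it did not pass without any 1 of the CS1 replicates or of CS2 replicates 1 and 2 (adjusted p = 0.0532 to 0.117). The other 4 did not pass as deposited. Their 95% intervals ran from -0.05 to 0.09 for YTHDF1, from -0.28 to 0.04 for YTHDF3, from -0.24 to 0.12 for YTHDC2 and from -0.20 to 0.09 for IGF2BP2. After scaling YTHDF1 was higher in CS1 cells by 0.12 (adjusted p = 0.0472).

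Whether a compound moved a reader as the hairpin did was tested as the response to the compound minus the response to the hairpin. These groups also differ in that the hairpin cells were infected and selected and the compound cells were not. The controls themselves stood apart, with shNS means between 0.579 (IGF2BP3) and 1.23 (IGF2BP2) times the DMSO means. For CS1, 3 of 9 readers passed, 2 as higher and 1 as lower, against 49.4% of all genes (31% as higher and 18.3% as lower). After median-of-ratios scaling 4 passed, against 50.3% of all genes. IGF2BP3 led them, with a CS1 response of -0.02 and an shFTO response of 0.99, a difference of -1.01 ± 0.10 (SE, adjusted p = 7.43e-07). YTHDF1 responded by 0.13 to CS1 and by -0.14 to the hairpin, a difference of 0.27 (adjusted p = 0.00019). HNRNPC fell less with CS1 than with the hairpin, by a difference of 0.20 (adjusted p = 0.00447), which after scaling was 0.17 and did not pass (adjusted p = 0.0989).

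HNRNPA2B1 differed between the CS1 and shFTO responses by 0.21, which did not pass (adjusted p = 0.0691), and without shFTO replicate 3 by 0.32, which did (adjusted p = 0.000181). IGF2BP2 differed by -0.21 (adjusted p = 0.0639), and by -0.24 after scaling (adjusted p = 0.00809). YTHDF3 differed by -0.20, which did not pass (adjusted p = 0.117), and by -0.23 after scaling, which did (adjusted p = 0.0128). The IGF2BP2 difference also passed without DMSO replicate 3, without CS1 replicate 1 and without CS1 replicate 2 (adjusted p = 0.0326, 0.0406 and 0.0496).

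For CS2, 4 of 9 readers passed, 3 as higher and 1 as lower, against 63.4% of all genes (39.8% as higher and 23.7% as lower). After median-of-ratios scaling 5 passed, against 63% of all genes. IGF2BP3 differed by -0.78 ± 0.10 (SE, adjusted p = 4e-06), from a CS2 response of 0.22 and an shFTO response of 0.99. HNRNPA2B1 differed by 0.54 ± 0.09 (SE, adjusted p = 0.000109) and by 0.41 after scaling (adjusted p = 0.00105). YTHDC1 differed by 0.29 (adjusted p = 0.00168) and by 0.16 after scaling (adjusted p = 0.0275). YTHDF1 differed by 0.25 (adjusted p = 0.000196) and, after scaling, by 0.12, which did not pass (adjusted p = 0.136). HNRNPC responded by -0.44 to CS2 and by -0.43 to the hairpin, and the 95% interval of that difference ran from -0.12 to 0.10. After median-of-ratios scaling the HNRNPC difference was -0.14 and did not pass (adjusted p = 0.143). It did pass as lower under quantile normalization (-0.14, adjusted p = 0.00991) and with ribosomal and mitochondrial-like entries removed (-0.18, adjusted p = 0.00416). IGF2BP2 and YTHDF3 did not pass as deposited, at -0.16 and -0.08 (adjusted p = 0.138 and 0.522), and did after scaling, at -0.29 and -0.21 (adjusted p = 0.00175 and 0.0158). Without shFTO replicate 3 YTHDF2 passed as well (0.16, adjusted p = 0.00413).

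The make-up of the IGF2BP and YTHDF families differed between shFTO and shNS cells. Summed over the IGF2BP genes, TPM was 82.3 ± 3.13 in shFTO cells and 54.01 ± 1.53 in shNS cells (SD, n = 3 each), and IGF2BP3 made up 53.1% ± 1.61 of the sum in shFTO cells and 39.6% ± 0.740 in shNS cells. The YTHDF sum was 176 ± 8.96 TPM in shFTO cells and 174 ± 3.55 TPM in shNS cells, with overlapping ranges. Within it YTHDF3 held 25.5% ± 0.909 in shFTO cells and 18.8% ± 0.398 in shNS cells, and YTHDF1 held 34.1% ± 0.512 in shFTO cells and 38.1% ± 0.0894 in shNS cells. In the compound arm the YTHDF sum was 264 ± 1.78 TPM in CS1 cells, 276 ± 6.55 TPM in CS2 cells and 252 ± 2.37 TPM in DMSO cells. YTHDF2 held 43.6% ± 0.649 of it in CS1 cells, 44.6% ± 0.809 in CS2 cells and 47.7% ± 1.16 in DMSO cells. A share within a library does not move where all its values are multiplied by 1 factor, as in median-of-ratios scaling.

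**Figure D4:**
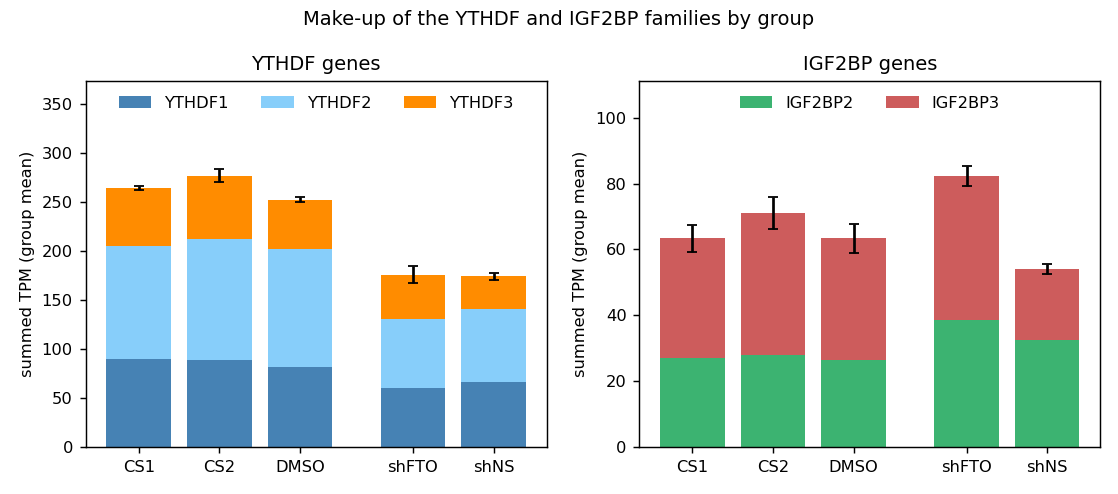
Group means of summed TPM for the YTHDF genes and the IGF2BP genes, stacked by gene, with error bars for the SD of the sum over libraries. The IGF2BP sum is 82.3 TPM in shFTO cells and 54.01 TPM in shNS cells, while the YTHDF sum is 176 TPM in shFTO cells and 174 TPM in shNS cells.

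The other HNRNP genes, which package and splice nuclear RNA, fell more often than they rose in each comparison with a control. Of 23 tested, 4 rose and 12 fell in CS1 cells against DMSO (median log2 change -0.21, against 0.09 over all genes tested), 7 rose and 12 fell in CS2 cells against DMSO (median -0.14, against 0.20), and 3 rose and 15 fell in shFTO cells against shNS (median -0.32, against 0.07). Over all genes 37.5% passed as higher and 14.3% as lower in CS1 cells, 49.5% and 24.6% in CS2 cells, and 31.9% and 24.5% in shFTO cells. After median-of-ratios scaling the HNRNP counts were 2 and 16, 3 and 17, and 1 and 18, against 52.2%, 71.7% and 56.4% of all genes called in either direction. HNRNPA1, a splicing repressor close to HNRNPA2B1 in sequence, fell by 0.44 in CS1, 1.19 in CS2 and 0.31 in shFTO cells (adjusted p = 8.69e-08, 4.49e-13 and 5.7e-06). HNRNPLL, a splicing factor of lymphocyte activation, rose in all 3, by 1.02, 1.47 and 0.99 (adjusted p = 7.38e-08, 2.49e-10 and 2.16e-07). HNRNPLL rose from a low level, with 0.72, 0.85, 0.79 and 0.76 TPM in DMSO libraries and 4.35, 4.3 and 5.18 TPM in shNS libraries. HNRNPA1 and HNRNPLL kept these directions and calls after scaling. HNRNPM fell by 1.06 and HNRNPD by 0.61 in shFTO cells (adjusted p = 3.98e-06 and 1.53e-06).

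Among other m6A-binding proteins (13 tested), 2 rose and 4 fell in CS1 cells, 6 rose and 6 fell in CS2 cells, and 3 rose and 6 fell in shFTO cells, with medians of -0.07, -0.06 and -0.10. Over all genes 51.8%, 74.1% and 56.4% passed in these comparisons, with medians of 0.09, 0.20 and 0.07. After scaling these counts were 0 and 11 (0 higher also at an unadjusted p under 0.05 in limma), 1 and 7, and 3 and 8. Over all genes 52.2%, 71.7% and 56.4% were then called, and 49.1%, 49.8% and 44.4% of those calls were higher. G3BP1, a stress granule protein, fell in all 3 comparisons, by 0.44, 0.50 and 0.53 (adjusted p = 0.000145, 1.52e-05 and 3.76e-05), and its paralogue G3BP2 rose by 0.74 in shFTO cells (adjusted p = 2.51e-09). FXR2, of the fragile X family, rose by 0.74 in CS2 cells and 0.31 in shFTO cells (adjusted p = 8.1e-10 and 5.31e-05). SND1 fell by 1.24 and LRPPRC by 0.84 in CS2 cells (adjusted p = 1.09e-13 and 6.08e-12). The 5 of these values named for G3BP2, FXR2, SND1 and LRPPRC kept their sign and passed after scaling.

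The writers moved in both directions. Of 12 writer genes tested, 3 rose and 3 fell in CS1 cells, 5 rose and 4 fell in CS2 cells, and 3 rose and 5 fell in shFTO cells, with medians of 0.01, -0.04 and -0.05, against 51.8%, 74.1% and 56.4% of all genes called. After scaling the counts were 0 and 5 (0 higher also at an unadjusted p under 0.05), 5 and 7, and 1 and 6. Of all genes 52.2%, 71.7% and 56.4% were then called. In CS2 cells RBM15B, which guides the complex to RNA, fell by 0.55, KIAA1429, a scaffold of it, fell by 0.55 and WTAP, its adaptor, rose by 0.40 (adjusted p = 1.15e-08, 1.51e-07 and 1.37e-08), and all 3 kept their direction and call after scaling. METTL3, the catalytic subunit, did not pass in any of the 3 as deposited (log2 changes 0.00, -0.09 and -0.09; -0.000793 for CS1), and after scaling it passed as lower in CS2 cells, at -0.32, and in shFTO cells, at -0.19 (adjusted p = 8.16e-05 and 0.0112). METTL14, its partner, rose by 0.51 in CS2 cells and 0.19 in shFTO cells (adjusted p = 3.36e-06 and 0.0275), the rise in shFTO cells not passing after scaling. ALKBH5, the eraser other than FTO, rose by 0.39 in CS2 cells (adjusted p = 1.12e-07), and by 0.15 after scaling (adjusted p = 0.00137).

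The effector partners of YTH proteins are the enzymes and adaptors through which marked messages are decayed, exported or spliced. Of 13 tested, 3 rose and 2 fell in CS1 cells, 7 rose and 3 fell in CS2 cells, and 2 rose and 6 fell in shFTO cells, with medians of -0.04, 0.19 and -0.15, against 51.8%, 74.1% and 56.4% of all genes called. After scaling the counts were 2 and 5, 3 and 5, and 2 and 8, against 52.2%, 71.7% and 56.4% of all genes called. CNOT1, the scaffold of the deadenylase complex that YTHDF2 recruits, rose by 0.19 in CS1 and 0.32 in CS2 cells (adjusted p = 0.00212 and 8.98e-06), and neither passed after scaling (0.06 and 0.09). RIDA, which bridges YTHDF2 to an endonuclease, fell by 1.44 in CS2 cells (adjusted p = 7.76e-10). SRSF3, a splicing factor that YTHDC1 binds, fell by 0.29, 0.21 and 0.60 in CS1, CS2 and shFTO cells (adjusted p = 0.00242, 0.0108 and 5.28e-06).

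Transcripts tied to readers in leukaemia work were 11 in number, and 10 were tested. In CS1 cells 4 rose and 5 fell, in CS2 cells 3 rose and 4 fell, and in shFTO cells 0 rose and 7 fell, with medians of -0.22, 0.02 and -0.53, against 51.8%, 74.1% and 56.4% of all genes called. After scaling the counts were 3 and 6, 3 and 7, and 0 and 8, against 52.2%, 71.7% and 56.4% of all genes called. All 10 values in shFTO cells lay below 0, so limma called 0 as higher at an unadjusted p as well. MYC, a growth regulator whose message IGF2BP proteins are known to stabilise, fell by 1.33 in CS1, 3.85 in CS2 and 0.87 in shFTO cells (adjusted p = 1.19e-06, 2.3e-12 and 0.000117). TNFRSF1B, a receptor for tumour necrosis factor whose message YTHDF2 is reported to destabilise, rose by 0.58 in CS1 and 1.26 in CS2 cells (adjusted p = 5.07e-08 and 2.13e-12), and its change of -0.04 in shFTO cells did not pass (adjusted p = 0.454). The amino acid transporter SLC1A5 fell by 0.49 and the aminotransferase GPT2 by 0.86 in shFTO cells (adjusted p = 1.02e-07 and 1.47e-07).

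**Figure D5:**
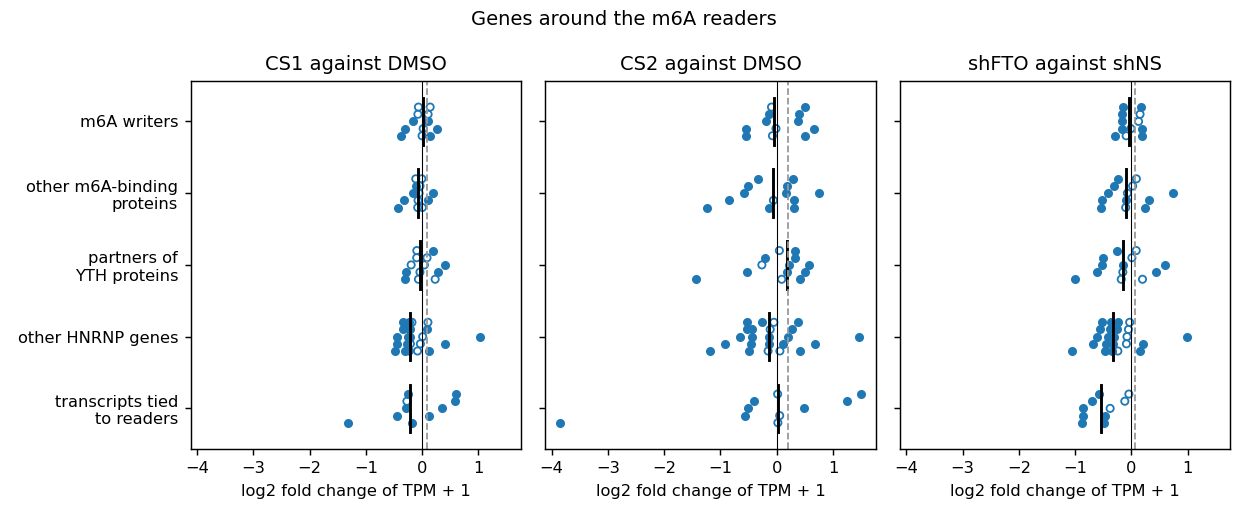
Log2 fold change of TPM + 1 of each tested gene in 5 lists around the readers, in CS1 against DMSO, CS2 against DMSO and shFTO against shNS; filled points passed at an adjusted p under 0.05, the thick line is the list's median and the dashed line the median over all genes tested. The list of other HNRNP genes has medians of -0.21, -0.14 and -0.32, and in the shFTO panel the list of transcripts tied to readers has a median of -0.53.

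The genes most like a reader over the 16 libraries were found by the root mean square difference of log2 values, each gene centred on its own mean, among 10708 genes with a mean of at least 5 TPM. HNRNPA2B1, whose group means spanned 1.13 on the log2 scale, was closest to PSMD12 (difference 0.0591), MCM6 (0.0678) and BAG2 (0.0719), where the median over all candidates was 0.457. IGF2BP3, with a span of 0.99, was closest to YOD1 (0.0812), CMPK1 (0.101) and PI4KA (0.109). YTHDF3, with a span of 0.96, was closest to KIDINS220 (0.057), FOXN2 (0.0668) and C1GALT1 (0.0693). These likenesses rest on the same 5 groups and their shared controls.

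The longest coding transcripts of the readers differed in how often they held GGACT, a common form of the m6A consensus, read on the transcript strand. HNRNPA2B1 held it nowhere in 3664 bases. HNRNPC held it 5 times in 4501 bases (1.11 per kb) and IGF2BP2 5 times in 3688 bases (1.36 per kb), while the median over 11916 tested genes with a coding transcript was 0.934 per kb. YTHDF1 (0.303 per kb), YTHDF3 (0.385) and IGF2BP3 (0.471) were below that median, as were YTHDC1 (0.642) and YTHDC2 (0.633), and YTHDF2 was above it (1.03). Transcripts came from GENCODE 29, and no methylation was measured in these files.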

How the data were processed

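The values used are TPM, made by the authors with RSEM 1.2.31 on GRCh38 per the submitters' processing notes. The sources used here do not give the aligner, annotation, filters, strand setting or read depth, so no counting interval is given. Each of the 16 deposited columns sums to 1000000, and columns were matched to samples by title. Of 26830 entries, the 14951 that reached 1 TPM in 3 or more libraries entered limma 3.58.1 (R 4.3.3) on log2(TPM + 1), with 1 mean per group over all 16 libraries, a mean-variance trend, two-sided tests and Benjamini-Hochberg adjustment over all of them at 0.05. Fold changes on this scale understate those of low genes. Alternatives were pseudocounts of 0.1 and 0.5, other filters, 4 other scalings, array weights, fitting the compared groups alone, no trend, a replicate block and leaving out each library. Gene locations came from GENCODE 29 and promoters from RefSeq. The members and gene lists were chosen with earlier results of these data known. The text names all 10 members, FTO, at most 6 passing genes per list and comparison by smallest adjusted p, and the 3 genes most like each of 3 members. METTL3, SRSF3 and G3BP1 in CS2 cells, genes named for not passing, and overlapping or near-copy genes stand outside that rule and were chosen after their values were seen.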

Additional observations from a re-analysis of the deposited data

Results flagged for a closer look

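For 7 of the 18 response differences tested, a reader responded differently to a compound than to the FTO hairpin, by limma's test of the difference itself, against 49.4% of all genes for CS1 and 63.4% for CS2. Against the shFTO response, the CS1 response of IGF2BP3 differed by -1.01, that of YTHDF1 by 0.272 and that of HNRNPC by 0.202 on the log2 scale. The CS2 response differed by -0.775 for IGF2BP3, 0.541 for HNRNPA2B1, 0.291 for YTHDC1 and 0.253 for YTHDF1. After median-of-ratios scaling HNRNPC with CS1 and YTHDF1 with CS2 did not pass (adjusted p = 0.0989 and 0.136). Infection and selection differ between these arms as well as the agent, and the 2 cannot be told apart. None of the 9 readers had a DMSO library that stood far from the other 3.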

How the results depend on the processing

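Of 28 values called over the 6 comparisons, 15 kept their direction and call under every alternative run. These include HNRNPC in all 3 comparisons with a control, HNRNPA2B1 in CS1 and shFTO cells, all 6 calls in shFTO cells, and the IGF2BP3 response differences. Most sign changes came under other scalings of the libraries, and the cause of each change was not tested. The count of readers called moved by over 1.5 times in CS1 against CS2, to 3 with ribosomal and mitochondrial-like entries removed, and in the CS1 minus shFTO response, to 6 under quantile normalization and 6 with array quality weights. Over the values of single readers, 81 alternatives turned a sign, some of them with a call ended or gained. Of those that kept the sign, 63 brought a value past the threshold, 43 ended a call and 1037 did neither. Under median scaling the sign turned for YTHDF1 (-0.0500), YTHDC1 (-0.0574) and IGF2BP2 (-0.15) in CS1 against DMSO, YTHDF1 (-0.12), YTHDF2 (-0.19), IGF2BP2 (-0.15) and IGF2BP3 (-0.00987) in CS2 against DMSO, YTHDC1 (-0.0849) in shFTO against shNS, YTHDF2 (-0.0808) in the CS1 minus shFTO response and YTHDF2 (-0.0321) in the CS2 minus shFTO response. Under median-of-ratios scaling the sign turned for YTHDF1 (-0.00443), YTHDC1 (-0.00959) and IGF2BP2 (-0.11) in CS1 against DMSO, YTHDF1 (-0.12), YTHDF2 (-0.20), IGF2BP2 (-0.15) and IGF2BP3 (-0.0106) in CS2 against DMSO, YTHDC1 (-0.10) in shFTO against shNS, YTHDF2 (0.00107), YTHDC2 (0.0395) and IGF2BP2 (0.0447) in CS1 against CS2, YTHDF2 (-0.0188) in the CS1 minus shFTO response and YTHDF2 (-0.0199) in the CS2 minus shFTO response. Under quantile normalization the sign turned for YTHDC1 (-0.0142) and IGF2BP2 (-0.12) in CS1 against DMSO, YTHDF1 (-0.11), YTHDF2 (-0.19), IGF2BP2 (-0.13) and HNRNPA2B1 (0.47) in CS2 against DMSO, YTHDC1 (-0.0227) in shFTO against shNS, YTHDF2 (0.0104), YTHDC2 (0.00439) and IGF2BP2 (0.00978) in CS1 against CS2, YTHDF2 (-0.13) in the CS1 minus shFTO response and YTHDF2 (-0.14) in the CS2 minus shFTO response. With ribosomal and mitochondrial-like entries removed the sign turned for IGF2BP2 (-0.0432) in CS1 against DMSO, YTHDF1 (-0.0473), YTHDF2 (-0.12) and IGF2BP2 (-0.075) in CS2 against DMSO, YTHDC2 (0.0265) and IGF2BP2 (0.0317) in CS1 against CS2, YTHDF2 (-0.0699) in the CS1 minus shFTO response and YTHDF2 (-0.0573) in the CS2 minus shFTO response. With array quality weights the sign turned for YTHDC2 (0.00752) and HNRNPA2B1 (0.0237) in CS2 against DMSO, YTHDC1 (-0.00975) in shFTO against shNS and YTHDF3 (0.0129) and YTHDC2 (0.0508) in the CS2 minus shFTO response. Without replicate 3 of CS1, CS2 and shFTO the sign turned for IGF2BP3 (0.0178) in CS1 against DMSO, YTHDC2 (0.0411) and HNRNPA2B1 (0.0424) in CS2 against DMSO and YTHDF3 (0.00578), YTHDC2 (0.0567) and HNRNPC (0.0121) in the CS2 minus shFTO response. The last setting was chosen after seeing the data, as was summing HNRNPC with its near copies. Leaving out 1 library at a time turned the sign, at some library, of IGF2BP2 in CS1 against DMSO (-0.0186 to 0.10), IGF2BP3 in CS1 against DMSO (-0.055 to 0.0178), HNRNPA2B1 in CS2 against DMSO (-0.0462 to 0.0424), YTHDC2 in CS2 against DMSO (-0.0747 to 0.0411), YTHDC1 in shFTO against shNS (-0.032 to 0.0237), YTHDC2 in shFTO against shNS (-0.0576 to 0.0173), IGF2BP2 in CS1 against CS2 (-0.11 to 0.0218), YTHDF2 in the CS1 minus shFTO response (-0.0251 to 0.0603), HNRNPC in the CS2 minus shFTO response (-0.0415 to 0.0229) and YTHDC2 in the CS2 minus shFTO response (-0.0561 to 0.0597), none of them called in either direction. With 1 library left out, the count of called readers ranged over 4 to 5 in CS1 against DMSO, 6 to 7 in shFTO against shNS and 4 to 6 in CS1 against CS2. Replicate numbers match across groups, but the labels tie them to nothing, and deviations of same-numbered libraries correlated at -0.00925 to 0.219, not all over 0.1. With the number as a replicate block, 5 readers were called in the CS1 minus shFTO response, YTHDC1 lost its call in CS1 against DMSO (adjusted p = 0.0544), and YTHDC2 in CS1 against DMSO and YTHDF3 in CS1 against CS2 gained one (adjusted p = 0.0215 and 0.0117). So did YTHDF3 and IGF2BP2 in the CS1 minus shFTO response (adjusted p = 0.00361 and 0.00365) and YTHDF2 and IGF2BP2 in the CS2 minus shFTO response (adjusted p = 0.046 and 0.0109), and no other call of a reader changed under the block. Read depth is unknown, so what it limits cannot be stated. Without replicate 3 of CS2, YTHDF3 in CS1 against CS2 passed at -0.18 (adjusted p = 0.0492).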
